A study of Mus musculus with 23 samples.

Results

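Integrins are paired receptors of 1 alpha and 1 beta subunit that hold cells to the extracellular matrix, and laminins are cross-shaped matrix proteins, each made of 1 alpha, 1 beta and 1 gamma chain, that form the base of basement membranes. Integrins bind laminins, collagens, fibronectin, vitronectin and latent TGF-beta, and signal to the actin cytoskeleton through talin, kindlin and focal adhesion kinase. In the brain both families are known from the pia, from blood vessels and from astrocyte endfeet, and neurons use laminin receptors during axon growth.

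The genes described here are the protein-coding genes of the GRCm39 annotation whose symbol names an integrin subunit (Itga or Itgb) or a laminin chain (Lama, Lamb or Lamc) and whose counts summed to at least 50 over all libraries. Of 37 genes with such a symbol, 33 met this minimum: 15 integrin alpha subunits, 7 integrin beta subunits and 11 laminin chains, out of 33025 genes with a count. The other 4, Itgad, Itgam, Itgax and Itgb6, had 23, 15, 7 and 23 counts in all 23 libraries together.

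The RNA came from hippocampal neuron cultures of homozygous Nedd8cKO mice, whose Nedd8 gene carries LoxP sites, taken at P0 and grown on poly-L-lysine for 12 days per the labels. The RFP group (11 libraries) received a lentivirus expressing RFP and the CRE group (12 libraries) one expressing RFP and CRE recombinase, and both groups carried the same floxed alleles. The comparison used 21 libraries, 11 CRE and 10 RFP, with 7430401 to 13345552 counts per CRE library and 9833872 to 17112815 per RFP library. Libraries are numbered by culture (1 to 3, as the names were read) and by library within it. The p-values measure the spread between these libraries, since the labels do not say that they came from separate cultures, and the difference between libraries of 1 culture may be technical.

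Nedd8, the ubiquitin-like modifier that CRE removes, checked the labels: it stood at 44.1 to 76.0 CPM (counts scaled to library size with TMM factors, median 62.4) in RFP and at 5.92 to 18.0 CPM (median 12.1) in CRE libraries. It changed by -2.44 on the log2 scale (SE 0.17, adjusted p = 6.98e-11), and the groups did not overlap. Apart from CRE 3-3 and RFP 3-2, which were left out, CRE 1-3 and RFP 2-4 stood apart from the rest: their values rose with the GC content of genes (Spearman's rho over genes 0.742 and 0.401, against -0.322 to 0.105 in the other 19 libraries), and mitochondrial genes took 0.261% and 3.435% of their counts, against 6.997% to 11.095%. The 19 calls among the genes described here held, with the same sign, without CRE 1-3, without RFP 2-4 and without the 4 libraries together, and several values that these libraries moved are also given without them.

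Laminin and integrin transcripts were higher in CRE than in RFP cultures in most of the genes that changed. With no filter on low counts, so that all 33 genes were fitted, 17 were higher and 2 lower in CRE at an adjusted p under 0.05, where 13.4% of all 32701 genes were higher and 7.81% lower. Their median log2 fold change was 0.96, beside 0.14 over all genes. After the filter, 27 of the 33 genes were tested among 14488, and the same numbers, 17 and 2, passed, where 16.4% of all genes tested were higher and 13.8% lower. A stricter pair of limits, 1.3 for the size of the log2 fold change and 6 for the -log10 of its adjusted p, was passed by 1 gene, beside 1.39% of all genes tested. The CRE libraries lay above every RFP library for 4 genes, Lamc1, Itga5 and Itgb3 among them, beside 2.64% of all genes tested, and below every RFP library for 0, beside 2.08%. Without the 4 libraries that stand apart, 18 of 28 genes tested were higher and 2 lower, beside 19.4% and 18.7% of all genes, the added one being Itga11.

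**Figure D1:**
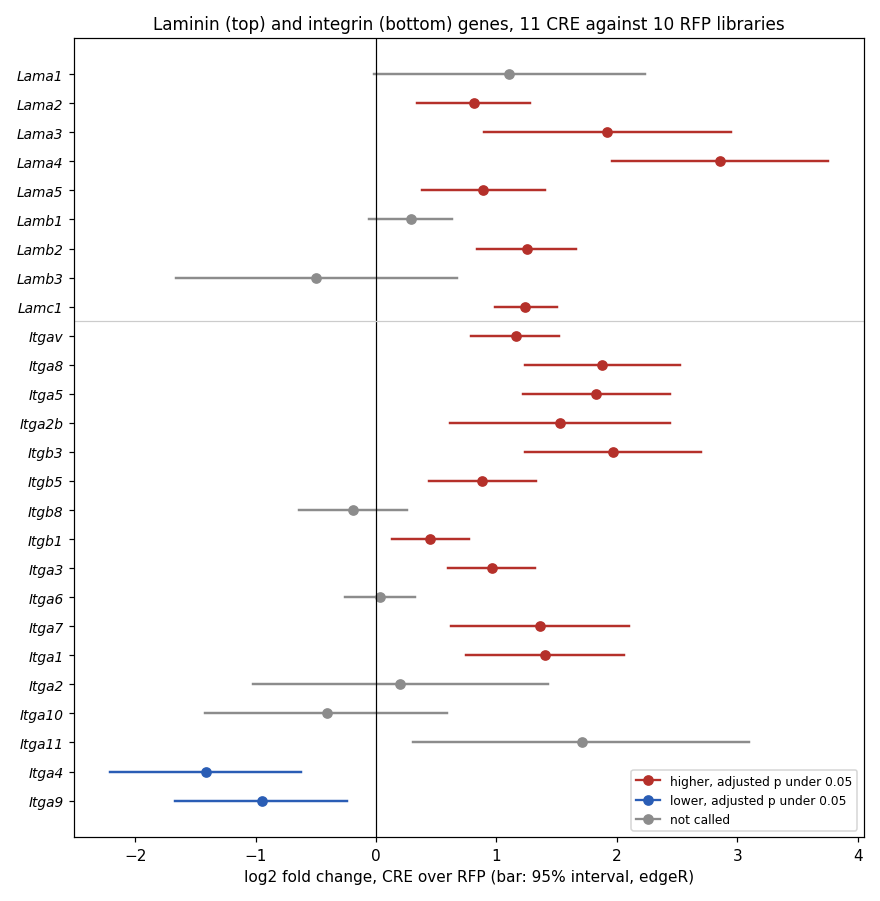
Log2 fold change of CRE over RFP (x axis) for 9 laminin and 17 integrin genes tested, with 95% intervals from edgeR over 11 CRE and 10 RFP libraries; red marks genes called higher, blue genes called lower and grey genes not called at an adjusted p of 0.05. Lama4 stands farthest to the right of those drawn at 2.86, and Itga4 at -1.41 and Itga9 at -0.95 are the genes called lower.

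Markers of several cell types also differed between the groups. Those of neurons summed to 6170 to 7360 CPM in RFP (median 7080) and 2620 to 5780 in CRE libraries (median 4740), with 6 of 8 called lower and 0 higher. Without CRE 1-3 the CRE sums began at 3390. Those of the oligodendrocyte lineage went from a median of 1500 CPM (647 to 1870) to 798 (425 to 1910), with 5 of 8 called lower and 0 higher. Both upper ends came from libraries that stand apart, and without these the ranges were 647 to 1720 in RFP and 425 to 1010 in CRE libraries. Astrocyte markers were mixed, with 2 of 10 higher and 4 lower and a summed median of 6160 CPM (3660 to 7930) in RFP and 4670 (1590 to 5230) in CRE libraries. Mesenchymal and mural markers went the other way, from a median of 84.7 CPM (22.2 to 163) to 304 (154 to 481), with 3 of 11 called higher (Foxc1, Rgs5 and Pdgfrb) and 0 lower. Without the libraries that stand apart these ranges were 62.4 to 163 and 156 to 481. Endothelial markers were low in both groups, at medians of 13.4 CPM (6.96 to 18.2) and 8.24 (6.28 to 13.0), with 7 of 9 under a mean of 1 CPM and both tested ones lower. Fitted without a filter on low counts, 2 of the 9 were lower and 1 higher, with a median log2 fold change of 1.21. Leukocyte markers summed to a median of 5.11 CPM (3.75 to 9.91) in RFP and 9.88 (5.55 to 33.6) in CRE libraries, with 10 of 12 under a mean of 1 CPM and 2 of the 3 tested called higher. Without the filter 2 of the 12 were higher and 1 lower. Choroid plexus markers had like medians, 19.9 CPM (11.6 to 49.2) and 20.1 (8.82 to 57.4, and up to 35.2 without CRE 1-3), and platelet markers medians of 0.918 and 1.39 CPM. The part of these cells in the values below was not tested. Fewer cells of a type and less RNA per cell cannot be told apart in bulk RNA. The methods place CRE and RFP behind the Synapsin 1 promoter, which is active in neurons, so other cells of the dish need not have lost Nedd8.

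The gamma chains are needed by every laminin for assembly. Lamc1 encodes γ1, the gamma chain of most laminins. In RFP libraries Lamc1 lay between 31.5 and 64.2 CPM (median 45.1), and in CRE libraries between 81.9 and 132 CPM (median 120). The groups did not overlap, and the log2 fold change was 1.24 (SE 0.12, adjusted p = 2.56e-08). The gene lies at chr1:153094597-153208774 (GRCm39, minus strand). Lamc3, which encodes the γ3 chain, did not pass the filter, with 66 counts in RFP and 201 in CRE libraries and at most 5.99 CPM in a library. A count of 0 allows up to 3 counts, which is 0.179 to 0.409 CPM depending on the library.

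Among the alpha chains, whose large end domains bind integrins and dystroglycan, Lama4 had the highest fold change. Lama4 encodes the α4 chain of vessel and mural laminins. In RFP libraries Lama4 lay between 0.179 and 2.82 CPM (median 1.24), and in CRE libraries between 2.48 and 14.1 CPM (median 9.94). Of the 11 CRE libraries, 10 lay above every RFP library. Lama4 rose by 2.86 on the log2 scale (SE 0.43, adjusted p = 1.23e-05). Its exons overlap 2028 bases of genes on the other strand whose counts summed to 65.19% of its own, so some of its reads are uncertain if the counting did not use strand.

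Lama3, on chromosome 18, encodes the α3 chain of epithelial laminins. In RFP libraries Lama3 lay between 0 and 2.21 CPM (median 1.17), and in CRE libraries between 0.838 and 8.49 CPM (median 3.54). The groups overlapped, with 9 CRE libraries above every RFP library, and the log2 fold change was 1.92 (SE 0.49, adjusted p = 0.00378). Lamb3, which encodes the β3 chain of epithelial laminins, was not called: it lay between 0.639 and 4.45 CPM in RFP (median 1.24) and between 0 and 3.49 CPM in CRE libraries (median 0.557). Its log2 fold change was -0.50 (95% interval -1.66 to 0.67, adjusted p = 0.553), so a change of either sign is within the interval. The mean of Lamb3 went from 1.08 CPM in RFP to 0.534 in CRE libraries in culture 1, from 1.92 to 0.408 in culture 2 and from 1.32 to 2.65 in culture 3. The highest RFP value was that of RFP 2-4, and the log2 fold change was -0.01 without the 4 libraries that stand apart (adjusted p = 0.992) and -0.18 with all 23 libraries (adjusted p = 0.852). Over 119 exon bases Lamb3 overlaps an opposite-strand gene with 308.44% of its counts, so its value is uncertain if the counting did not use strand.

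Lama5 encodes the α5 chain, the most widely made laminin alpha chain of adult basement membranes. In RFP libraries Lama5 lay between 7.36 and 23.9 CPM (median 11.8), and in CRE libraries between 11.3 and 54.1 CPM (median 22.3). The ranges overlapped widely, with 4 CRE libraries above every RFP library, and the highest value was that of the GC-rich library CRE 1-3. It rose by 0.89 on the log2 scale (SE 0.25, adjusted p = 0.00697) and 0.71 without CRE 1-3 (adjusted p = 0.00774). An opposite-strand gene that shares 85 of its exon bases held 288.12% of its counts, so its value is uncertain if the counting did not use strand. Lama2 encodes α2, the chain of muscle and glial basement membranes. In RFP libraries Lama2 lay between 4.00 and 9.90 CPM (median 5.89), and in CRE libraries between 6.40 and 18.9 CPM (median 11.4). The log2 fold change was 0.81 (SE 0.22, adjusted p = 0.0071), with 6 CRE libraries above every RFP library. Lama1, which encodes the α1 chain of embryonic and pial basement membranes, was not called: its log2 fold change was 1.10 (95% interval -0.02 to 2.23, adjusted p = 0.127), and its highest value, 15.7 CPM, came from culture 3. The cultures differed: its mean went from 3.82 CPM in RFP to 3.27 in CRE libraries in culture 1. In culture 2 it went from 1.0 to 2.4 and in culture 3 from 3.12 to 12.3 CPM. Fitted in culture 3 alone, it was called higher (adjusted p = 0.04).

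Of the beta chains, Lamb2 rose and Lamb1 did not pass the test. Lamb2 encodes β2, the chain of synaptic, vascular and kidney basement membranes. In RFP libraries Lamb2 lay between 20.9 and 45.4 CPM (median 31.5), and in CRE libraries between 44.4 and 172 CPM (median 59.1). All but 1 of the 11 CRE libraries lay above every RFP library, and the highest, again CRE 1-3, lay far above the rest. It rose by 1.25 on the log2 scale (SE 0.20, adjusted p = 2.27e-05) and 1.06 without CRE 1-3 (adjusted p = 4.75e-07). Lamb1, which encodes β1, had a log2 fold change of 0.29 (95% interval -0.06 to 0.63, adjusted p = 0.213). Genes on the opposite strand that share 817 of the exon bases of Lamb1 held 386.84% of its counts. Its value, also beside Lamb2, is uncertain if the counting did not use strand. Per kilobase Lamb2 was already the higher of the pair in RFP libraries, at 1.28 to 3.22 times Lamb1 (median 1.75), and stood at 2.80 to 9.34 times in CRE libraries (median 3.10), or up to 5.65 times without CRE 1-3.

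**Figure D2:**
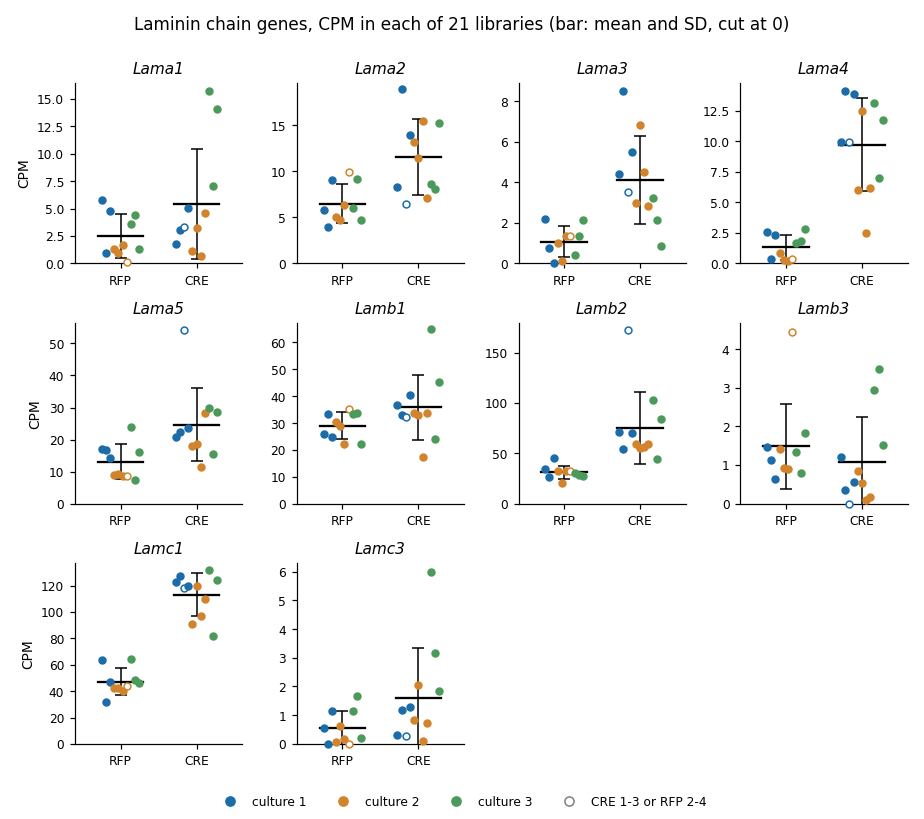
CPM (y axis, from 0) of 10 laminin chain genes in each RFP and CRE library of the 21, colored by culture, with mean and SD as lines; open points are CRE 1-3 and RFP 2-4. The CRE points of Lamc1 lie above all RFP points, while those of Lamb1, Lamb3 and Lama1 mix with them.

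Summed per kilobase of exons, the 5 laminin alpha chains together stood at 1.20 to 2.94 CPM per kilobase in RFP (median 1.86) and 2.43 to 6.33 in CRE libraries (median 3.95). The beta chains stood at 6.23 to 9.86 (median 8.09) and 9.94 to 31.3 (median 12.9, and up to 23.3 without CRE 1-3), and the gamma chains at 2.89 to 5.84 (median 4.03) and 8.62 to 12.7 (median 11.5). The beta and gamma sums did not overlap between groups, and the alpha sums did. Within the alpha sum, Lama5 held the highest median share in both groups, 56.3% (35.0% to 78.7%) in RFP and 44.7% (39.9% to 74.7%) in CRE libraries, while the share of Lama4 went from a median of 3.79% (0.808% to 8.31%) to 14.1% (6.47% to 20.3%).

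Integrins with certain alpha subunits read the RGD letters of fibronectin, vitronectin and latent TGF-beta, and all 4 alpha genes of this group, Itgav, Itga5, Itga8 and Itga2b, were called higher. Itgav encodes αv, which pairs with several beta subunits. In RFP libraries Itgav lay between 37.9 and 96.7 CPM (median 69.9), and in CRE libraries between 74.9 and 237 CPM (median 172). Of the CRE libraries, 9 lay above every RFP library, and the log2 fold change was 1.16 (SE 0.18, adjusted p = 1.55e-05). Itga5 encodes α5, the classic fibronectin receptor subunit. In RFP libraries Itga5 lay between 0.476 and 5.23 CPM (median 3.76), and in CRE libraries between 7.79 and 22.4 CPM (median 11.9). The groups of the 21 libraries did not overlap, and the log2 fold change was 1.83 (SE 0.29, adjusted p = 2.80e-05). The left-out library CRE 3-3 stood at 2.05 CPM, within the RFP range.

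Itga8 encodes α8, a subunit of mesenchymal and some neuronal cells that binds nephronectin. In RFP libraries Itga8 lay between 2.87 and 19.5 CPM (median 8.66), and in CRE libraries between 6.95 and 55.4 CPM (median 30.9). The only CRE library within the RFP range was CRE 1-3, and without the libraries that stand apart the CRE values began at 20.1 CPM and the groups did not overlap. The log2 fold change over the 21 libraries was 1.88 (SE 0.31, adjusted p = 3.77e-05). Itga2b encodes αIIb, the platelet fibrinogen receptor subunit, and was scarce. In RFP libraries Itga2b lay between 0.103 and 1.66 CPM (median 0.658), and in CRE libraries between 0.362 and 5.01 CPM (median 2.41). The groups overlapped in part, with 8 CRE libraries above every RFP library, and the log2 fold change was 1.53 (SE 0.44, adjusted p = 0.00948).

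Among the beta subunits that pair with αv, Itgb3 and Itgb5 rose and Itgb8 did not pass the test. Itgb3 encodes β3, the partner in the vitronectin receptor. In RFP libraries Itgb3 lay between 0.184 and 2.42 CPM (median 1.47), and in CRE libraries between 2.93 and 8.92 CPM (median 5.31). The groups of the 21 libraries did not overlap, and the log2 fold change was 1.97 (SE 0.35, adjusted p = 0.000105). The left-out library RFP 3-2, which the methods do not name as removed, stood at 4.49 CPM, within the CRE range. Itgb5 encodes β5, another vitronectin-binding partner. In RFP libraries Itgb5 lay between 11.5 and 34.8 CPM (median 25.6), and in CRE libraries between 24.2 and 109 CPM (median 41.5). Of the CRE libraries, 9 lay above every RFP library, the highest being CRE 1-3, and the log2 fold change was 0.88 (SE 0.21, adjusted p = 0.00247) and 0.68 without CRE 1-3 (adjusted p = 0.00121).

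Itgb8 encodes β8, the αv partner of astrocytes and progenitors that activates latent TGF-beta. It lay between 45.3 and 100 CPM in RFP (median 81.1) and between 23.3 and 108 CPM in CRE libraries (median 76.2), with a log2 fold change of -0.19 (95% interval -0.64 to 0.26, adjusted p = 0.553). The balance between Itgav and Itgb8 differed between the groups: per kilobase, Itgav stood at 0.635 to 0.994 times Itgb8 in RFP (median 0.805) and at 1.31 to 3.25 times in CRE libraries (median 2.16), with no overlap. Several such ratios were examined, and no share over all gene pairs was computed. The ratios of Itgb3, Itgb5 and Itga8 to Itgav overlapped between the groups. So did those of Itga3 to Itga6, Lama4 and Lama5 to Lama2, and Itga1 to Itga2. Itgb6, the epithelial αv partner, was under the count minimum.

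**Figure D3:**
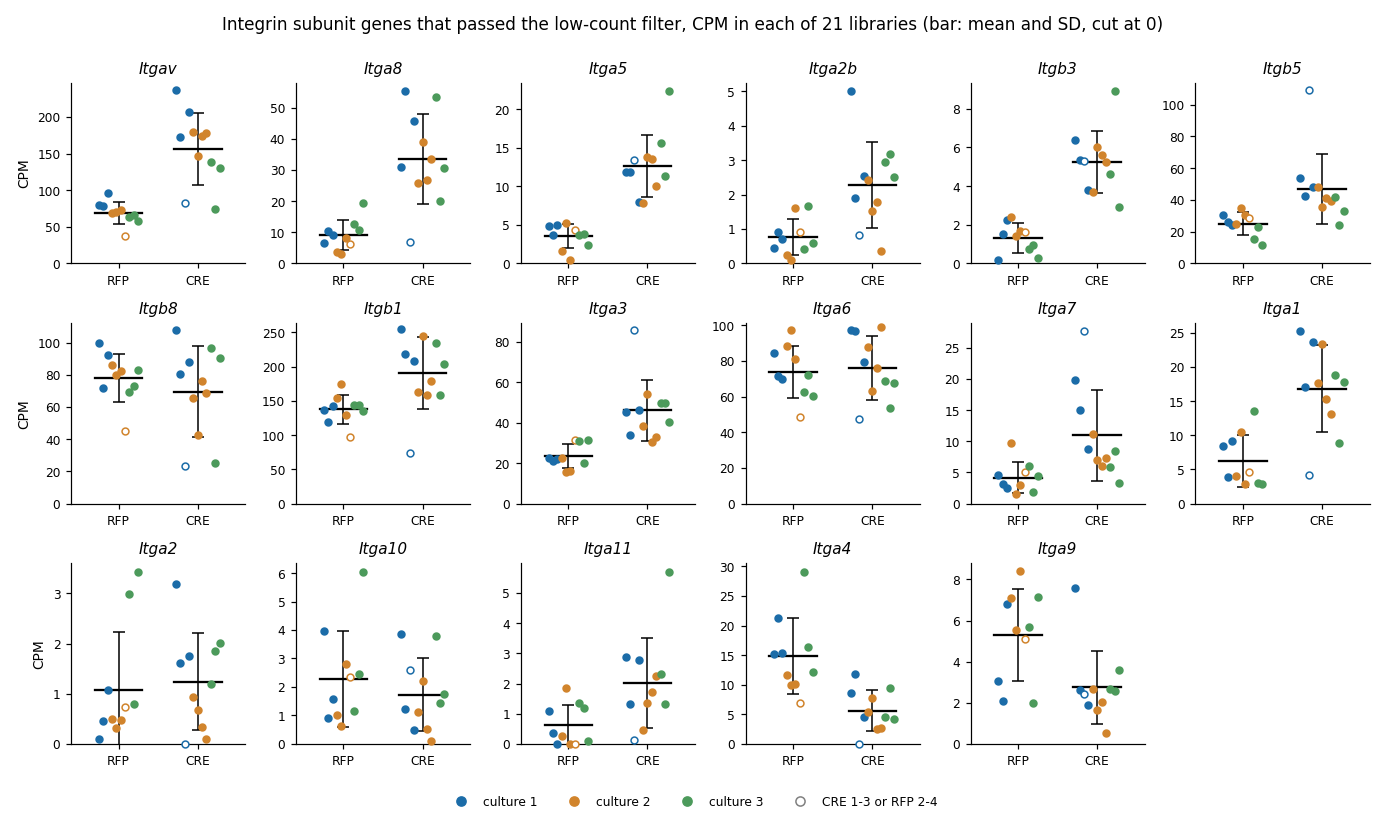
CPM (y axis, from 0) of the 17 integrin subunit genes tested, in each RFP and CRE library of the 21, colored by culture, with mean and SD as lines; open points are CRE 1-3 and RFP 2-4. The CRE points of Itga5 and Itgb3 lie above all RFP points, those of Itga6 and Itgb8 mix with them, and those of Itga4 sit mostly below.

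Itgb1 encodes β1, the shared partner of the laminin-binding, collagen-binding and several RGD-binding subunits. In RFP libraries Itgb1 lay between 96.7 and 175 CPM (median 140), and in CRE libraries between 73.4 and 255 CPM (median 204). The groups overlapped, 7 CRE libraries lay above every RFP library, and the lowest value of each group was that of the GC-rich library, CRE 1-3 and RFP 2-4. Itgb1 rose by only 0.45 on the log2 scale (SE 0.15, adjusted p = 0.0265), and was lost with limma-voom (0.41, adjusted p = 0.0535). Without CRE 1-3 it was 0.54 (adjusted p = 0.000117). Itgb4, the β4 partner of α6 in epithelial hemidesmosomes, did not pass the filter, with 32 counts in RFP and 97 in CRE libraries. Its exons overlap opposite-strand genes over 1262 bases, and these held 2216.06% of its counts, which leaves the same doubt about strand.

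The laminin-binding alpha subunits were split. Itga6 encodes α6, and was the most abundant of the 3 per kilobase in RFP libraries. It lay between 48.8 and 97.5 CPM in RFP (median 71.8) and between 47.7 and 98.8 CPM in CRE libraries (median 76.1), with a log2 fold change of 0.03 (95% interval -0.26 to 0.32, adjusted p = 0.913). Itga3 encodes α3, which prefers the laminins with α3 and α5 chains. In RFP libraries Itga3 lay between 15.8 and 31.5 CPM (median 22.2), and in CRE libraries between 30.6 and 85.8 CPM (median 45.3). All but 1 of the CRE libraries lay above every RFP library, and the log2 fold change was 0.96 (SE 0.17, adjusted p = 0.00013) and 0.83 without CRE 1-3 (adjusted p = 2.72e-05). As a share of all integrin alpha transcripts per kilobase, Itga6 went from 24.3% to 41.2% in RFP (median 31.6%) to 12.5% to 24.0% in CRE libraries (median 17.6%), while its own level differed by less than its error.

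Itga7 encodes α7, the laminin receptor subunit of muscle. In RFP libraries Itga7 lay between 1.54 and 9.76 CPM (median 3.77), and in CRE libraries between 3.27 and 27.7 CPM (median 8.41). Only 4 CRE libraries, the highest being CRE 1-3, lay above every RFP library. The log2 fold change was 1.36 (SE 0.35, adjusted p = 0.00428) and 1.13 without CRE 1-3 (adjusted p = 0.00542), but it rested on culture 1: within culture 1 it was 2.38, within culture 2 it was 0.65 and within culture 3 it was 0.50, and without culture 1 it was 0.61 (adjusted p = 0.243).

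Of the 4 collagen-binding alpha subunits, 1 was called. Itga1 encodes α1, a collagen IV receptor subunit of mesenchymal and vascular cells. In RFP libraries Itga1 lay between 2.82 and 13.5 CPM (median 4.36), and in CRE libraries between 4.22 and 25.3 CPM (median 17.7). Of the CRE libraries, 8 lay above every RFP library and CRE 1-3 lay lowest, and the log2 fold change was 1.40 (SE 0.31, adjusted p = 0.00112). Its neighbor Itga2, 20995 bases away on chromosome 13, encodes the platelet and epithelial collagen receptor subunit α2 and was at 0 to 3.43 CPM in all 21 libraries, with a log2 fold change of 0.20 (95% interval -1.02 to 1.43, adjusted p = 0.833). Exons of Itga1 and Itga2 overlap other genes on the opposite strand over 2323 and 444 bases, and those of Itga1 also overlap 685 bases on the same strand. The overlapping genes of both strands together held 258.24% and 2681.82% of their counts. The value of Itga2 is uncertain if the counting did not use strand, and that of Itga1 in either case.

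Itga11 encodes α11, the collagen receptor subunit of fibroblasts, and just missed the threshold: it lay between 0 and 1.85 CPM in RFP (median 0.314) and between 0.136 and 5.70 CPM in CRE libraries (median 1.71), with a log2 fold change of 1.71 (95% interval 0.31 to 3.10, adjusted p = 0.054). With DESeq2 its adjusted p was 0.0338. Itga10, the cartilage collagen receptor subunit, had a log2 fold change of -0.41 (95% interval -1.42 to 0.59, adjusted p = 0.567), and 1739 of its exon bases also belong to another gene model on the same strand.

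The genes that fell were those for α4 and α9, related subunits that bind VCAM1, the fibronectin splice segment, tenascin C and osteopontin. In RFP libraries Itga4 lay between 6.99 and 29.1 CPM (median 13.6), and in CRE libraries between 0 and 11.9 CPM (median 4.61). The groups overlapped, with 7 CRE libraries below every RFP library, and the log2 fold change was -1.41 (SE 0.38, adjusted p = 0.00569). Of its exon bases, 3481 also belong to a gene on the opposite strand, which held 2.61% as many counts. In RFP libraries Itga9 lay between 1.98 and 8.40 CPM (median 5.61), and in CRE libraries between 0.543 and 7.58 CPM (median 2.56). The log2 fold change was -0.95 (SE 0.34, adjusted p = 0.0351), with 3 CRE libraries below every RFP library, and the call was lost without culture 2 (-0.41, adjusted p = 0.585), with all 23 libraries (-0.85, adjusted p = 0.0548) and with counts summed per culture (-0.92, adjusted p = 0.0829). A gene on the opposite strand that shares 40 of its exon bases held 294.98% of its counts, so its value is uncertain if the counting did not use strand. Per kilobase, the ratio of Itga5 to Itga4 was 0.146 to 1.96 in RFP (median 0.679) and 3.14 to 16.7 in the 10 CRE libraries with a count of Itga4 (median 5.59), with no overlap. It sets a gene called higher over a gene called lower in these libraries, so it is not separate evidence of a difference. Markers of several cell types were called lower in the same comparison, beside 13.8% of all genes tested. These were 6 of 8 for neurons, 5 of 8 for the oligodendrocyte lineage, 4 of 10 for astrocytes (with 2 higher) and both endothelial markers tested. The 8 of the oligodendrocyte lineage had log2 fold changes from -3.13 to 0.21, and 2 were called lower with counts summed per culture. Their summed ranges overlapped between the groups, while those of neurons did not. The part of any of these cells in the values of Itga4 and Itga9 was not tested.

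The leukocyte subunits were at the edge of detection. Itgal, Itgae, Itgb2 and Itgb7 did not pass the filter and had 33 and 44, 50 and 53, 45 and 72, and 81 and 28 counts in all RFP and all CRE libraries. Beside Itgam, Itgax and Itgad, which were under the count minimum, these are the receptor subunits of microglia, lymphocytes and other blood cells. Nearly all exon sequence of Itgam is shared with a second gene model (90.771% of its 50-base stretches), so its low count is uncertain.

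**Figure D4:**
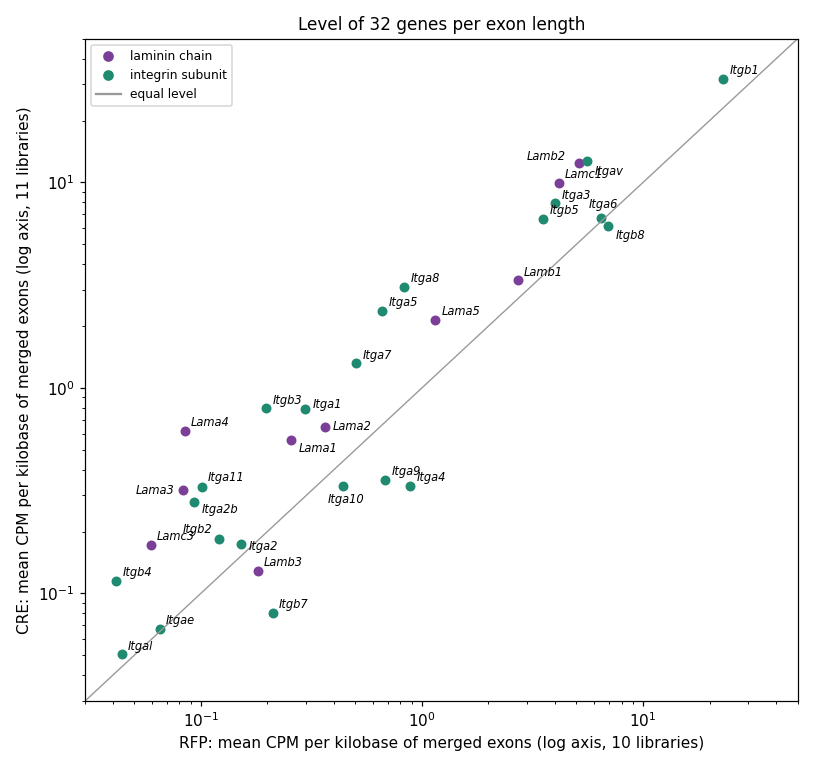
Mean CPM per kilobase of merged exons of 32 genes, RFP (x axis, log scale, 10 libraries) against CRE (y axis, log scale, 11 libraries), laminins in purple and integrins in green. Itgb1 is at the top right at 23.1 and 32.0, and Lama4 lies well above the line of equal level, at 0.0845 and 0.618.

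Ranked per kilobase of exons, Itgb1 stood first in both groups, at 23.1 ± 3.46 CPM per kilobase (SD, n = 10) for RFP against 32.0 ± 8.70 (SD, n = 11) for CRE, apart from the next gene by more than the SDs. In RFP libraries Itgb8 (6.94 ± 1.33), Itga6 (6.47 ± 1.28), Itgav (5.61 ± 1.24) and Lamb2 (5.11 ± 1.06) followed, none of them apart from its neighbor. In CRE libraries the order was Itgav (12.7 ± 3.95), Lamb2 (12.4 ± 5.90), Lamc1 (9.98 ± 1.42) and Itga3 (7.91 ± 2.62), again with no neighbors apart. Lama4 moved from 0.0845 ± 0.0658 to 0.618 ± 0.244, from rank 27 to rank 18 of the 33. The summed integrin alpha transcripts went from 17.1 to 22.8 CPM per kilobase in RFP to 26.8 to 48.0 in CRE libraries with no overlap, and the beta transcripts from 25.2 to 41.9 to 31.2 to 61.2 with overlap.

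Within single cultures, of 3 to 4 libraries a group, the log2 fold changes of the 19 called genes kept their sign. Lama4 had 2.75, 3.95 and 2.33 in cultures 1, 2 and 3, and Lamc1 had 1.35, 1.26 and 1.08. Itgb3 had 1.95, 1.47 and 3.02, Itga8 had 1.99, 2.50 and 1.28, and Itgav had 1.03, 1.38 and 0.88. Lama3 had 2.47 and 2.08 in cultures 1 and 2 and 0.67 in culture 3, and Itga9 ranged from -0.14 in culture 1 to -1.95 in culture 2. Leaving out culture 2 ended the calls of Lama2 (0.81, adjusted p = 0.0944), Lama3 (1.82, adjusted p = 0.0909), Lama5 (0.80, adjusted p = 0.0811), Itga1 (1.28, adjusted p = 0.0597), Itga4 (-1.55, adjusted p = 0.0566) and Itgb1 (0.49, adjusted p = 0.147). Leaving out culture 3 ended those of Itga2b (1.45, adjusted p = 0.0715), Itga4 (-1.30, adjusted p = 0.0629), Itga9 (-1.06, adjusted p = 0.0872) and Itgb1 (0.41, adjusted p = 0.156), and leaving out culture 1 ended that of Itga2b too (1.35, adjusted p = 0.0871).

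**Figure D5:**
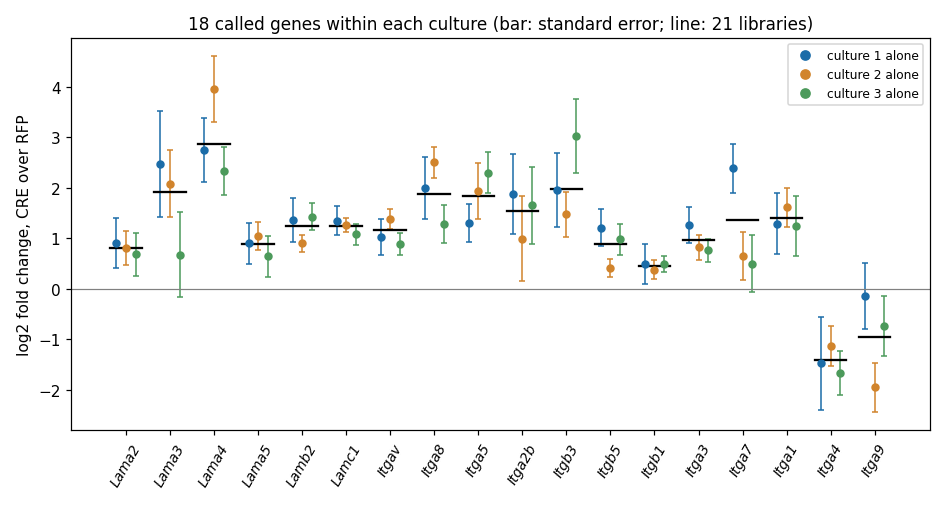
Log2 fold change of CRE over RFP (y axis) for 18 called genes, fitted within culture 1, 2 or 3 alone (colored points, bars are standard errors) and over the 21 libraries (black lines). Points of Lamc1 and Lamb2 lie close together, while culture 1 stands apart for Itga7 and culture 2 for Itga9.

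The upstream sequence of called genes is shown for the 4 higher genes and the 1 lower gene with the smallest p among those in the RefSeq promoter table, since genes that move together can be compared there. Each line gives the 250 bases before the start, 5′ to 3′ on the strand of the gene (GRCm38.p6, the build of the table and not of the counts), with GGGCGG or its reverse complement, the letters of Sp1 sites, in capitals.
Itgav (chr2:83724147-83724396, plus strand): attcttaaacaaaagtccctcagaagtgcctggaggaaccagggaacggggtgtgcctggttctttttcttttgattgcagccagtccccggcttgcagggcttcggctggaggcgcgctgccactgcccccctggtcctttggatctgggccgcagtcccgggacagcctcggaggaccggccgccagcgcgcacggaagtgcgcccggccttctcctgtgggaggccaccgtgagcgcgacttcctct
Lamb2 (chr9:108479612-108479861, plus strand): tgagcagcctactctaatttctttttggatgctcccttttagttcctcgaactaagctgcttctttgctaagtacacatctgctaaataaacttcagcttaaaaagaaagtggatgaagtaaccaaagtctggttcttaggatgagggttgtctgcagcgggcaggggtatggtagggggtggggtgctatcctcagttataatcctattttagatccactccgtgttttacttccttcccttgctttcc
Itga5 (chr15:103366792-103367041, minus strand): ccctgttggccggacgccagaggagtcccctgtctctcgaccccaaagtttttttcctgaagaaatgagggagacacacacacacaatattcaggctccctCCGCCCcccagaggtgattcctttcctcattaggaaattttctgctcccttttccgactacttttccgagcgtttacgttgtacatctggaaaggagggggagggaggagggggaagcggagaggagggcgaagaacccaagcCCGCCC
Itga8 (chr2:12301945-12302194, minus strand): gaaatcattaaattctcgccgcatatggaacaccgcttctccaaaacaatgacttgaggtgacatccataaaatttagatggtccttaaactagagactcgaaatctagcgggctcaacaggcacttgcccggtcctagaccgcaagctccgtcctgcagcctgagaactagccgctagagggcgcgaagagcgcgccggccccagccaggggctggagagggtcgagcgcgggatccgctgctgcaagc
Itga4 (chr2:79255176-79255425, plus strand): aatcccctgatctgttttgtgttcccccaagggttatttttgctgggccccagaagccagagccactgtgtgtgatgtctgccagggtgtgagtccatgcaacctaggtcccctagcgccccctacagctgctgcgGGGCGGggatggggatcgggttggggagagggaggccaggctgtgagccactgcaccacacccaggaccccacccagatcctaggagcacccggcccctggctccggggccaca
These windows were searched on both strands for 4 motifs, which did not overlap each other in the windows shown. Of 22 windows of 20 integrin and laminin genes in the table, 8 held GGGCGG (36.4%, beside 32.7% of all 32851 windows), 3 held the TEAD letters GGAATG (13.6%, beside 12.6%), 2 held the antioxidant response element core TGACNNNGC (9.09%, beside 10.2%) and 0 held the AP-1 letters TGANTCA (beside 6.75%). Among those shown, Itga5 had 2 matches of GGGCGG and Itga4 had 1, and Itgav, Lamb2 and Itga8 had 0 of the 4 motifs. A match describes letters only. Among others, Lamc1, Lamc3, Lama1, Lama3, Lama4, Itga6, Itga7, Itgae, Itgal, Itgb2, Itgb3 and Itgb4 were not in the table.

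Genes that work with these receptors moved less evenly. Of 46 genes of the integrin adhesion machinery, fitted without a filter, 12 were higher and 6 lower, beside 13.4% and 7.81% of all genes, which is 26.1% and 13.0% of the list. Their median log2 fold change was 0.17, beside 0.14 for all genes. The higher ones with the smallest p were Cd151, a tetraspanin that binds laminin-binding integrins (39.8 ± 7.57 CPM against 120 ± 42.7, RFP first, log2 fold change 1.57, SE 0.17, adjusted p = 1.06e-07), and Nedd9, a docking protein of the Cas family (25.1 ± 4.31 and 52.9 ± 11.3 CPM, log2 fold change 1.06, SE 0.13, adjusted p = 8.74e-07). Both had no overlap between groups. The lower ones were Ptk2b, the kinase Pyk2 that is abundant in hippocampal neurons (155 ± 26.8 and 47.5 ± 12.2 CPM, log2 fold change -1.73, SE 0.14, adjusted p = 1.00e-09), and Tln2, the talin of brain and muscle (80.0 ± 14.4 and 43.6 ± 8.24 CPM, log2 fold change -0.90, SE 0.12, adjusted p = 3.54e-06). Tln1, the widely expressed talin, rose by 0.69 (SE 0.14, adjusted p = 0.000504), a value named after it was seen.

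Of 31 other laminin receptors and laminin partners, 8 were higher and 3 lower without a filter (25.8% and 9.68%, beside 13.4% and 7.81% of all genes), with a median log2 fold change of 0.26 beside 0.14. Dag1, the precursor of dystroglycan that binds laminin alpha chains through its sugars, rose from 301 ± 32.7 to 508 ± 120 CPM (log2 fold change 0.73, SE 0.13, adjusted p = 8.54e-05), and Utrn, the cytoplasmic anchor utrophin, from 19.9 ± 7.71 to 35.8 ± 7.45 CPM (0.83, SE 0.18, adjusted p = 0.00109). Pomk, a kinase that builds the laminin-binding sugar of dystroglycan, went from 50.3 ± 4.35 to 30.3 ± 3.83 CPM (log2 fold change -0.75, SE 0.10, adjusted p = 1.58e-06), with no overlap between groups.

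Of 33 integrin ligands other than laminins, 11 were higher and 5 lower without a filter (33.3% and 15.2%, beside 13.4% and 7.81% of all genes), with a median log2 fold change of 0.75 beside 0.14. Ltbp1, which carries latent TGF-beta to the matrix, went from 1.13 ± 0.683 to 18.3 ± 6.30 CPM (log2 fold change 3.97, SE 0.30, adjusted p = 4.11e-10), and Tnc, tenascin C, a ligand of α9 and αv integrins, from 14.9 ± 2.76 to 48.9 ± 8.49 CPM (1.69, SE 0.13, adjusted p = 4.90e-10), both with no overlap. The lower ones with the smallest p were Ccn3, a secreted CCN protein (144 ± 65.2 and 60.8 ± 17.0 CPM, log2 fold change -1.27, SE 0.23, adjusted p = 0.00013), and Icam5, an adhesion molecule of telencephalic neurons (151 ± 39.1 and 73.4 ± 45.7 CPM, log2 fold change -1.07, SE 0.23, adjusted p = 0.000704). Values of these 3 lists are means ± SD over 10 RFP and 11 CRE libraries.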

How the data were processed

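The authors aligned reads of stranded mRNA libraries with STAR 2.7.8a to GRCm39 and counted them per gene with featureCounts 1.5.0-p1 (versions per the submitters' processing notes). The deposited values are raw counts with no normalization. The strand setting is not given in the sources used here.

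Genes were named with GENCODE M39. The groups were compared in edgeR 4.0.16 (R 4.3.3: filterByExpr, TMM, robust quasi-likelihood fit, Benjamini-Hochberg adjustment over all genes tested, calls at an adjusted p under 0.05) over the 21 libraries of the study's count table, which leaves out CRE 3-3 and RFP 3-2. The methods name CRE 1-3 and CRE 3-3 instead. The 95% intervals use the SE with 19 degrees of freedom. The fit was tested on simulated data.

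All 33 genes are counted, with full statistics for those called, and the 2 higher and 2 lower called genes with the smallest p are named in each of 3 pathway lists. A gene that the rule takes among the 33 and one in a list are not reported here. Markers were summed over 8 lists. Tln1, Foxc1, Rgs5 and Pdgfrb were named after their values were seen. The genes, lists and tests were chosen with earlier results of these data known. Of the alternatives, 18 were planned and 6 (each culture alone, culture 1 without CRE 1-3, and the 21 libraries without CRE 1-3 or RFP 2-4) were added after seeing the data, with DESeq2 1.42.0 and limma 3.58.1 among the tools. Floors cover counting error only.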

Additional observations from a re-analysis of the deposited data

Results flagged for a closer look

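Lamb3, the β3 chain gene, stood at 4.45 CPM in the library RFP 2-4, while the next highest of the 10 RFP libraries was at 1.82 CPM. The gap was 0.691 of the whole range of the group, above Dixon's 95% critical value for 10 samples. It was the 1 value flagged among 27 such tests of the RFP group, and chance flags about 1 in 20. Without this library the log2 fold change of Lamb3 was -0.12 (adjusted p = 0.901) in place of -0.50 (adjusted p = 0.553). RFP 2-4 is one of the libraries whose values rise with GC content.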

How the results depend on the processing

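Lamc1 passed an adjusted p of 0.05 in all 23 alternative fits, with log2 fold changes of 1.08 to 1.35. No called gene changed sign in any fit that gave it a value. The count of genes called higher, 17, was within 1.5 times of that in every alternative except culture 1 alone (3, and 13 without the library CRE 1-3) and culture 3 alone (8), and leaving out a culture gave 12 to 15. The count called lower, 2, was 1 with all 23 libraries, with sums per culture, in culture 2 or 3 alone and in culture 1 without CRE 1-3, and 0 in culture 1 alone, and leaving out a culture gave 0 to 2. Past both limits of size and p stood 5 genes with DESeq2 in place of 1 (3.79% in place of 1.39% of all genes tested). With sums per culture 0 did, where only 0.0271% of all genes tested passed them. Within each culture 0 did, with or without CRE 1-3, and leaving out a culture gave 0 to 1. Called genes of the adhesion machinery, 18, were 6 in culture 1 and 7 in culture 3 alone. Those of the laminin partners, 9 after the filter on low counts, were 14 without the pair of libraries that the methods name. There the share of all genes called went from 30.2% to 37.9%. The laminin partners called were also 14 without CRE 1-3, 0 in culture 1 and 2 in culture 3 alone, and 4 to 7 with a culture left out. Those of the ligands, 15 after the filter, were 8 in culture 1 and 8 in culture 3 alone. Fits of a culture alone or with a culture left out hold fewer libraries. The causes of these differences were not tested.

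The culture and library numbers were not shown to pair the samples: deviations of same-numbered CRE and RFP cultures correlated at 0.023, 0.020 and 0.144. With culture as a replicate block 17 genes were higher and 2 lower, and with library number as a block 16 and 2, where Itgb1 lost its call (0.40, adjusted p = 0.0581). With sums per culture and culture as a block 17 were higher, 1 was lower and 0 passed both limits. There Itga2b lost its call (1.43, adjusted p = 0.0531) and Itga11 gained one (1.88, adjusted p = 0.018). Depth limits the genes under 1 CPM, where 3 counts stand for 0.179 to 0.409 CPM.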
